A study of Mus musculus with 6 samples.

Results

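Lgr4, Lgr5, Rnf43, Znrf3, Axin2, Nkd1, Fzd7, Lrp6 and Wnt3, 9 of the 32285 genes counted in single cells of mouse small intestinal organoids, were chosen by symbol as WNT receptors, feedback genes of the pathway and its crypt ligand. Organoids are cultures grown from intestinal crypts that contain stem cells and their differentiated progeny. They were derived from adult mice 10 weeks of age and were collected on day 3 in a medium with EGF, Noggin and R-spondin1 and no added WNT. WT organoids were left without EIPA (-EIPA, n = 2 libraries, given the solvent DMSO) or were given EIPA (+EIPA, n = 2), an amiloride analogue that inhibits ion transport, at 5 µM, the dose the study's methods give for cultures. The CRISPR line carried, in WT organoids, a lentiviral Cas9-GFP that Dox (doxycycline, 2 µg/mL) induces and a guide RNA, and it came from clones selected with puromycin. It gave 1 library without Dox (-Dox) and 1 with Dox (+Dox). Cells were sorted as live, and for +Dox as live and GFP-positive, so the sort and Dox cannot be told apart.

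WNT proteins bind Frizzled receptors such as Fzd7 together with the co-receptor Lrp6, which stabilises β-catenin and switches on target genes. The ubiquitin ligases Rnf43 and Znrf3 remove Frizzled from the cell surface, and R-spondin bound to Lgr4 or Lgr5 clears these ligases. Axin2, a scaffold of the complex that degrades β-catenin, and Nkd1, a Dishevelled-binding protein, are targets that feed back on the pathway. In the small intestine Lgr5 marks the crypt base columnar stem cells, and Paneth cells between them are a known source of Wnt3.

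In GRCm38 coordinates of the GENCODE annotation, each gene spans the positions given here and is protein-coding. The receptors are Lgr5 (chr10:115450311-115587780, minus strand), Lgr4 (chr2:109917647-110014257, plus), Fzd7 (chr1:59482424-59486955, plus) and Lrp6 (chr6:134446476-134566965, minus). The ligases are Rnf43 (chr11:87662722-87735539, plus) and Znrf3 (chr11:5276324-5444847, minus). Axin2 (chr11:108920349-108950783, plus), Nkd1 (chr8:88521354-88594884, plus) and Wnt3 (chr11:103774150-103817957, plus) complete the set. RefSeq promoters of GRCm38.p6 were matched for 6 of the 9 genes, not for Lgr5, Znrf3 and Lrp6. The 250 bases before the RefSeq start are shown for 4 of them, since these genes had their highest level, among the named cell classes, in different cells: Axin2 and Fzd7 in stem-like cells, and Lgr4 and Wnt3 in Paneth-like cells. They were searched on both strands for CTTTG followed by a pair of letters that are each A or T, the letters that TCF factors, the DNA-binding partners of β-catenin, are known to recognise. Capitals mark a match.
Axin2, chr11:108920099-108920348, plus strand: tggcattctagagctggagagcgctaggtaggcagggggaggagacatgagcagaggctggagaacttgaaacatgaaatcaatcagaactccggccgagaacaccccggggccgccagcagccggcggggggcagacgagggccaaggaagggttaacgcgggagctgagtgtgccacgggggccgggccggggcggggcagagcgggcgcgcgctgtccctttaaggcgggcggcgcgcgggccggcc
Fzd7, chr1:59481897-59482146, plus strand: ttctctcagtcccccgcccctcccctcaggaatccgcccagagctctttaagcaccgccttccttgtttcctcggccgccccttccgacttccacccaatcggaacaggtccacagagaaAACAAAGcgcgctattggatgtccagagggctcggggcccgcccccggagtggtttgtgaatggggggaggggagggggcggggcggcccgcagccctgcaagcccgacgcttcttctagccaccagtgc
Lgr4, chr2:109917397-109917646, plus strand: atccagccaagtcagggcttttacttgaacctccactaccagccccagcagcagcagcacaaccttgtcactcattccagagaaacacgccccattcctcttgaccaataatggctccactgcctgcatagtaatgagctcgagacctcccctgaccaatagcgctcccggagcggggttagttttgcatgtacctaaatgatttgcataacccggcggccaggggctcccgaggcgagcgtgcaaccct
Wnt3, chr11:103773925-103774174, plus strand: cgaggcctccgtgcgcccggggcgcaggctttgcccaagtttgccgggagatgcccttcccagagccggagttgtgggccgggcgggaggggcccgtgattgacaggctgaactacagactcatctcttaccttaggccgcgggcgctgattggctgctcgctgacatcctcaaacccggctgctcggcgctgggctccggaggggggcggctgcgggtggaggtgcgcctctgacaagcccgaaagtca
A match was found in Fzd7 alone of the 7 promoters of these genes, on the minus strand at bases 130 to 124 before the start. Of 32851 RefSeq promoters, 14.8% held at least 1 match in the same 250 bases.

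Limits of 1000 genes or more and a mitochondrial share under 20% left 87954 cells, 12083 to 18211 per library, with 161670015 to 239368573 unique molecular identifiers (UMIs, counted molecules) per library and medians of 11477.5 to 17020 UMIs per cell. Library pairs shared 33 to 78 cell barcodes, at most 0.563% of a library's. Clusters were named from markers, with the 9 genes and the rest of a 117-gene WNT list left out of the clustering and of the markers. ISC-like cells (intestinal stem cells, led by Olfm4, Gkn3 and Clca3b) made up 9.02 to 12.2% of the cells of a library. Paneth-like cells (led by Lyz1 and defensins) also held Goblet marker genes, at a summed 37392 to 55447 CPM (counts of a gene per 1000000 UMIs of the class in a library). Goblet-like cells held these markers at 23135 to 48011 CPM, so the markers did not separate Goblet-like from Paneth-like cells. EEC-like (enteroendocrine) cells had shallower medians, 4978 to 6716.5 UMIs, and a summed level of 16 EEC markers from 4374 to 42562 CPM. The median of this sum over the libraries was 39386 CPM, so the lowest library held far less of these markers. Clusters that could not be named held 13.2 to 16.1% of the cells of a library and are in no class below. The 6 immune markers were near 0, at a sum of 0.551 to 0.917 CPM over all cells. The 6 stromal markers summed to 0.451 to 13.2 CPM over all cells and to 4.35 to 329 CPM in EEC-like cells.

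Lgr5, the R-spondin receptor that marks stem cells, was highest in ISC-like cells. Its level there was 173 and 182 CPM in the -EIPA libraries, 141 and 148 CPM with EIPA, 168 CPM in -Dox and 175 CPM in +Dox. The mean was 164 CPM ± 16 (SD, n = 6 libraries), and all 6 libraries lay above every library of every other class. Paneth-like cells came next, at 71.5 CPM ± 8.3, followed by progenitor-like cells at 62.1 ± 6.3, and these neighbours overlapped. Tuft-like, EEC-like and Goblet-like cells were at 53.1, 47.6 and 45.4 CPM and also overlapped. Enterocyte-like cells were lowest, at 12.4 CPM ± 3.2, separate from the other classes. The ratio of ISC-like to enterocyte-like cells was 13.5, with a range of 10.5 to 17.2 over the libraries. In Paneth-like cells, the summed ISC markers were at 1638 to 2854 CPM, against 6930 to 10511 CPM in ISC-like cells, and the part of such RNA in their Lgr5 level was not tested.

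Lgr4, the more widely expressed R-spondin receptor, had another order. It was highest in Paneth-like cells, at 83.3 and 87.8 CPM without EIPA, 72.7 and 81.9 CPM with EIPA, 69.7 CPM in -Dox and 63.5 CPM in +Dox. The mean of 76.5 CPM ± 9.3 lay apart from the next class, Goblet-like cells at 40.2 ± 4.2, in all 6 libraries. The ratio of Paneth-like to ISC-like cells was 1.99 (1.64 to 2.57). From Goblet-like cells down through ISC-like (38.9 CPM), tuft-like (36.3), progenitor-like (35.1), EEC-like (31.8) and enterocyte-like cells (27.0) each class overlapped its neighbour.

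Fzd7, a Frizzled receptor, reached 17.2 CPM ± 3.9 in ISC-like cells, above EEC-like cells (12.6 ± 4.0) in 6 of 6 libraries although the ranges overlapped. Its ISC-like level was 13.6 to 16.2 CPM in the WT libraries and 22.0 and 22.1 CPM in the CRISPR libraries, so the lines did not overlap. Enterocyte-like cells had the lowest level, 4.21 CPM ± 1.3, apart from all other classes. An unnamed cluster led by mitochondrial genes, with a median of 3908.5 UMIs per cell, had Fzd7 at 18.7 CPM ± 4.9, a range that overlapped that of ISC-like cells. Lrp6, the WNT co-receptor, was the most even of the receptors between classes. It was highest in EEC-like cells, at 62.2 CPM ± 9.2, and at means of 34.1 to 43.1 CPM in the other 6 classes, with overlapping ranges from each class to the next.

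Rnf43 and Znrf3, the ligases that remove Frizzled, differed in their order. Rnf43 was highest in ISC-like cells, at 48.6 and 68.0 CPM without EIPA, 46.9 and 57.6 CPM with EIPA, 43.2 CPM in -Dox and 57.1 CPM in +Dox. These 6 libraries (mean 53.6 CPM ± 9.1) were separate from those of Paneth-like cells (29.6 ± 3.8), and enterocyte-like cells were again lowest (10.3 ± 2.7). Znrf3 had no class that stood apart at the top, with EEC-like cells at 18.7 CPM ± 2.3, ISC-like cells at 16.8 ± 3.3 and Paneth-like cells at 16.7 ± 1.5. It was lowest in enterocyte-like cells, at 3.31 CPM ± 0.93, a range separate from all the others. The ISC-like level of Znrf3 was 12.4 to 16.8 CPM in the WT libraries and 20.5 and 20.6 CPM in the CRISPR libraries. As for Fzd7, the lines did not overlap.

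Axin2, the feedback scaffold, was highest in ISC-like cells, at 145 CPM in both -EIPA libraries, 136 and 162 CPM with EIPA, 147 CPM in -Dox and 149 CPM in +Dox. The mean of 147 CPM ± 8.3 was separate from progenitor-like cells, at 86.0 ± 6.9. EEC-like, Goblet-like, Paneth-like and tuft-like cells followed with overlapping ranges at 75.6, 64.8, 61.7 and 52.1 CPM. Enterocyte-like cells were at 14.1 CPM ± 2.8, and the ratio of ISC-like to enterocyte-like cells was 10.6 (7.73 to 13.2). Nkd1 was scarce. Over all cells it had 40 and 181 UMIs in the -EIPA libraries and 92 and 209 with EIPA, against 2 UMIs in -Dox and 4 in +Dox. In WT libraries its level was 6.44 to 16.6 CPM in tuft-like cells and 1.93 to 3.31 CPM in Paneth-like cells. The line, its clones and its culture cannot be told apart in this difference between WT and CRISPR organoids.

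Wnt3, the ligand, was highest in Paneth-like, EEC-like and Goblet-like cells. In Paneth-like cells it was at 70.9 and 58.5 CPM without EIPA, 66.9 and 59.9 CPM with EIPA, 82.1 CPM in -Dox and 78.5 CPM in +Dox. The mean of 69.5 CPM ± 9.6 was above that of EEC-like cells, 59.5 ± 11, and this order held in 6 of 6 libraries, while the ranges overlapped. Goblet-like cells followed at 30.2 CPM ± 4.1, separate from EEC-like cells above and from tuft-like cells below (4.15 ± 3.1). The clusters of this class were unequal, with little Wnt3 in that led by the Goblet genes Zg16 and Clca1, as given below. ISC-like cells were at 3.22 CPM ± 0.88, enterocyte-like cells at 1.58 ± 0.35 and progenitor-like cells at 1.43 ± 0.56. The ratio of Paneth-like to ISC-like cells was 22.0 (15.1 to 28.9). Beside these low levels, the summed level of 16 Paneth markers was 1145 to 3982 CPM in ISC-like cells and 101284 to 182536 CPM in Paneth-like cells, and the part of such RNA in the low Wnt3 levels was not tested.

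**Figure D1:**
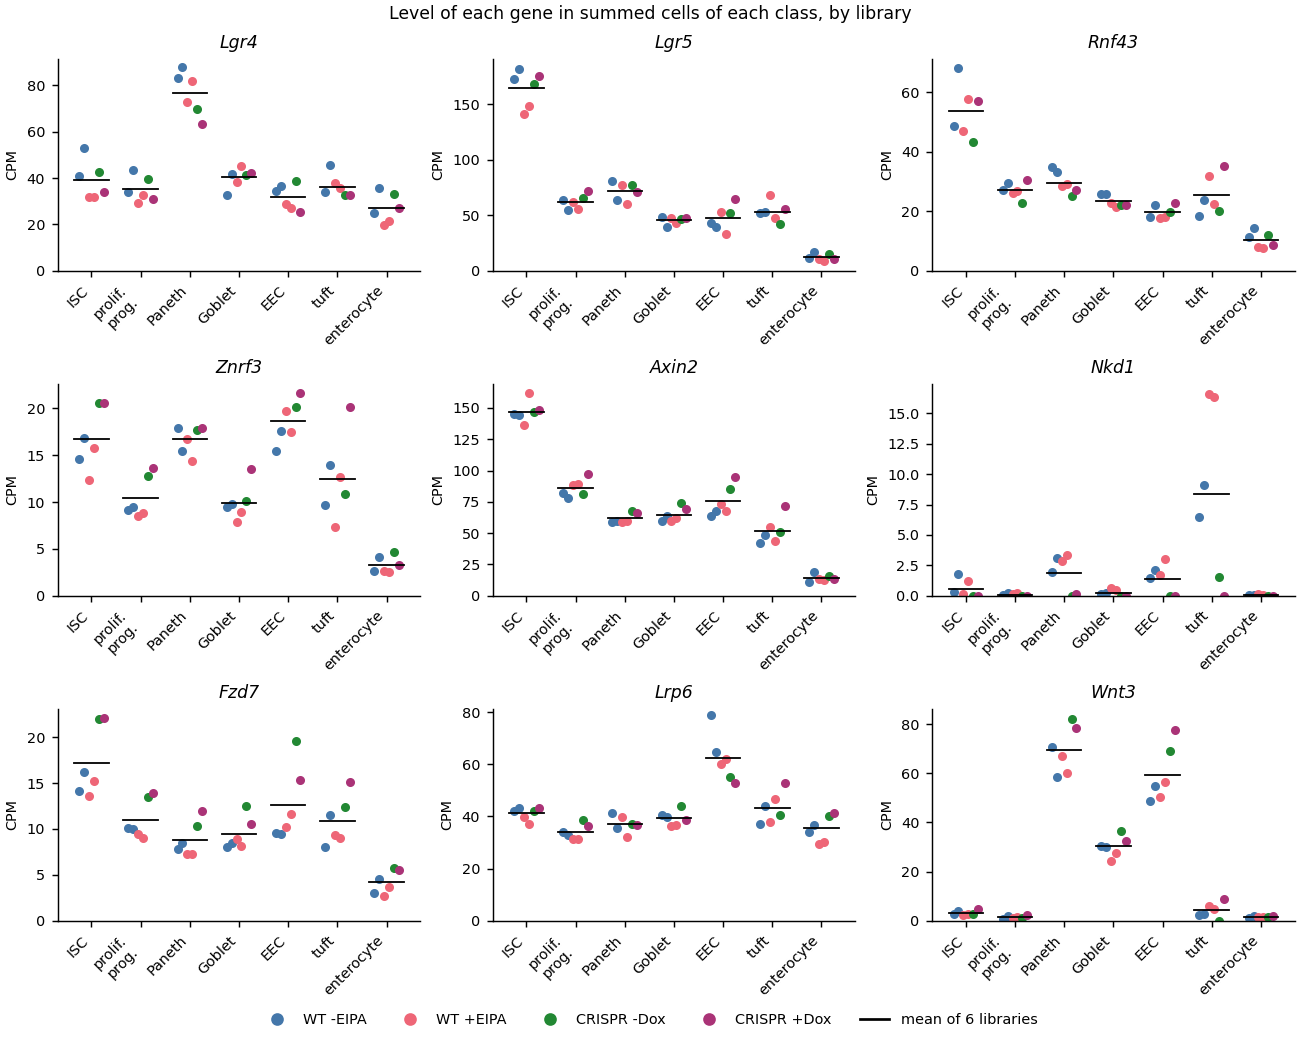
Levels of the 9 genes in 7 named cell classes (CPM of the class sum, linear axis), with 1 point per library coloured by its group and the mean of the 6 libraries. Lgr5, Rnf43, Axin2 and Fzd7 have their highest mean in ISC-like cells, and Lgr4 and Wnt3 in Paneth-like cells.

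Thus 4 of the 9 genes (Lgr5, Rnf43, Axin2 and Fzd7) had their highest mean among the 7 named classes in ISC-like cells. Of the 9400 genes whose mean reached 10 CPM in at least 1 class, 7.74% did. Nkd1 is not among these 9400, since its highest class mean was 8.34 CPM. The same 4 genes led in ISC-like cells when clusters were made without batch correction, at a finer resolution or without the cells of the highest doublet scores.

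Within a class the levels varied between clusters. Among progenitor-like clusters, Axin2 was at 95.7 CPM ± 10 in the cluster led by histone genes of S phase, at 82.7 ± 6.0 in that led by mitotic genes such as Ube2c and Ccnb1, and at 72.4 ± 2.4 in that led by the replication genes Ung and Mcm3 (SD, n = 6 libraries for each cluster). Lgr5 had the same order, at 71.4, 59.3 and 48.9 CPM. Among the 6 enterocyte-like clusters, Lgr5 ranged from 24.1 CPM ± 9.1 in that led by Apoa4 and Apob, which had a median of 4250 UMIs per cell and 14.3% mitochondrial UMIs, to 6.1 ± 2.6 in that led by Reg3a and Fabp1, with 16.4 ± 2.8 in that led by Gstm3, which had the most Lgr5 UMIs. Both Paneth-like clusters held Wnt3, at 71.2 CPM ± 8.4 in the defensin-led one and 68.7 ± 11 in the one led by Lyz1 and Ang4. Of the EEC-like clusters, that led by Ghrl and Neurog3, the factor that starts the enteroendocrine lineage, had the most Wnt3, at 72.5 CPM ± 7.9, against 49.8 ± 12 in that led by Chgb and Tac1 and 47.7 ± 13 in that led by Gip and Cck. Goblet-like cells formed a pair of clusters. The cluster led by Fcgbp, with Dll1, Spdef and Atoh1 among its leading genes, had Wnt3 at 32.7 CPM ± 4.3 and Axin2 at 69.7 ± 6.7. The cluster led by Zg16 and Clca1 had Wnt3 at 3.09 CPM ± 2.7, with 2 of 6 libraries at 0, and Axin2 at 12.7 ± 8.8. It held 21 of the 1793 Wnt3 UMIs that Goblet-like cells had in all.

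A level does not say which cells hold most of a transcript, since classes differ in size and depth. Of all Wnt3 UMIs, Paneth-like cells held 44.4 to 61.4% per library, EEC-like cells 11.8 to 23.9% and Goblet-like cells 10.3 to 19.0%. Of all Lgr5 UMIs, by contrast, progenitor-like cells held 39.3 to 51.4% and ISC-like cells 21.5 to 31.0%, although the level of Lgr5 was higher in ISC-like cells. For Axin2 the shares were 46.1 to 59.5% and 17.0 to 20.9%. Progenitor-like cells were named from genes of the cell cycle, so the name does not set them apart from dividing stem cells. They held ISC markers at a summed 2466 to 4660 CPM, against 6930 to 10511 CPM in ISC-like cells. The part of dividing stem cells in these shares, and in other progenitor-like values, was not tested. The largest share of Lgr4 UMIs also lay in progenitor-like cells (26.9 to 45.03%), with 9.43 to 26.2% in Paneth-like cells.

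**Figure D2:**
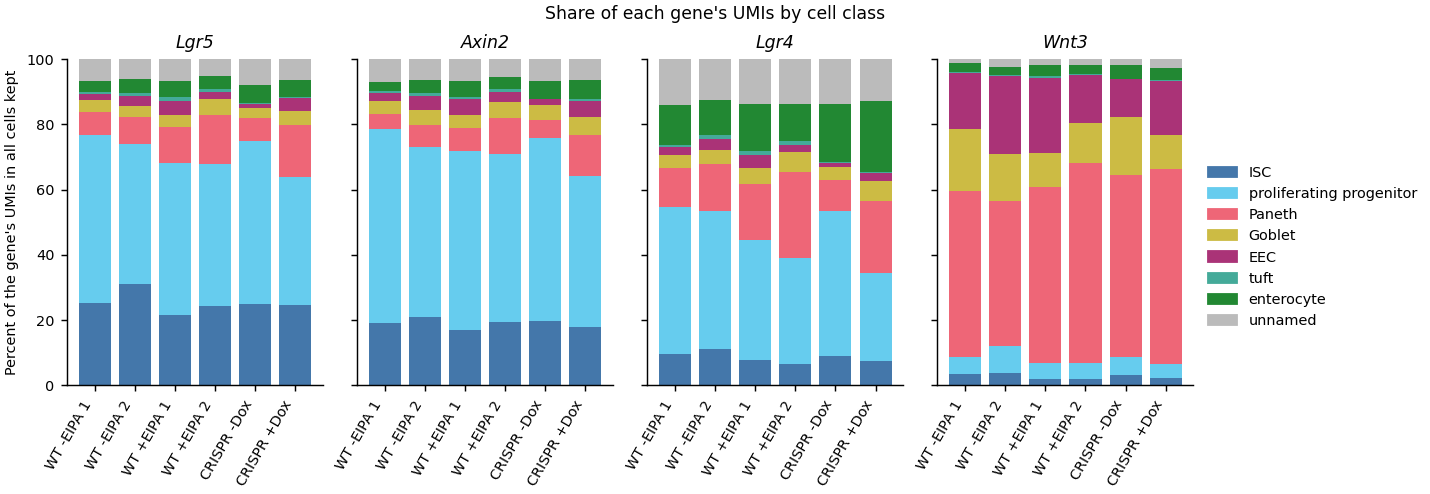
Share of all UMIs of a gene (percent, vertical axis) that each cell class held, as stacked bars per library. Paneth-like cells hold the largest share of Wnt3 in each library, and progenitor-like cells that of Lgr5 and Axin2.

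Over the 7 classes of the 3 untreated libraries (21 points, which share libraries and depth), the genes outside the 9 with patterns closest to Lgr5, among 8810 genes, were Smoc2, Wwp1, Rgmb, Etv6 and Slc12a2, with Pearson r of log2(CPM + 1) from 0.906 to 0.931. Rgmb and Slc12a2 were themselves ISC markers used for naming. Closest to Axin2, again outside the 9, were Nap1l1, Tiam1, Pls3, Wwp1 and Smoc2 (r from 0.945 to 0.974), so Wwp1 and Smoc2 stood in both lists. Closest to Wnt3 were Serpina1b, Ang, Rnase4, Muc3a and Kcnma1 (r from 0.950 to 0.971), of which Ang and Rnase4 encode secreted ribonucleases. Among the 9 genes, Lgr5 had r of 0.930 with Rnf43 and 0.923 with Axin2, within the range from 0.906 to 0.931 of its closest genes, and 0.117 with Wnt3. These correlations are descriptions without a test.

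In ISC-like cells the R-spondin receptors were lower in both +EIPA libraries, without passing the test. Lgr4 was at 40.8 and 53.0 CPM without EIPA and at 31.7 and 31.9 CPM with EIPA, so the groups did not overlap. Its log2 fold change was -0.50 (SE 0.14, n = 2 libraries per group), with an adjusted p of 1.00 in edgeR's quasi-likelihood test. Lgr5 was at 173 and 182 CPM without EIPA and at 141 and 148 CPM with EIPA, again without overlap. That is a log2 fold change of -0.23 (SE 0.089), also with an adjusted p of 1.00. Rnf43 (-0.09, SE 0.19), Znrf3 (-0.09, SE 0.16), Fzd7 (0.00, SE 0.13) and Lrp6 (-0.08, SE 0.089) moved by less than their errors. Axin2 was at 145 CPM in both -EIPA libraries and on either side of it with EIPA (log2 fold change 0.11, SE 0.11). Wnt3, at 2.78 and 3.87 CPM without EIPA and at 2.31 and 2.76 CPM with EIPA, differed by -0.33 (SE 0.28).

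None of the 9 genes passed an adjusted p of 0.05 in ISC-like cells, where 0% of the 11912 genes tested did (4.08% had an unadjusted p under 0.05, as had 2 of the 9, Lgr4 and Lgr5). DESeq2 called 0.16% of all genes and none of the 9. The replicate numbers pair the libraries by experiment, and with the experiment as a block 2 of the 9 genes were called, against 7.61% of all genes. They were Lgr4 (log2 fold change -0.51, SE 0.081, adjusted p = 4.62e-08) and Lgr5 (-0.23, SE 0.056, adjusted p = 0.00148). The blocked fit has 1 residual degree of freedom, so its small p rest on a spread shared across genes. When clusters were made without batch correction, the log2 fold change of Lgr5 was -0.87 (adjusted p = 0.039), and 0.844% of all genes were called. That class then held other cells, 5.49 and 13.04% of the cells without EIPA and 3.91 and 20.6% with EIPA, so this value is not one of the same cells.

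In proliferating progenitor-like cells Lgr4 was at 34.2 and 43.5 CPM without EIPA and at 29.3 and 32.8 CPM with EIPA, a log2 fold change of -0.26 (SE 0.15). Axin2 was at 82.4 and 78.1 CPM without EIPA and at 88.4 and 89.1 CPM with EIPA, without overlap, a log2 fold change of 0.21 (SE 0.069). Lgr5 was at 63.6 and 54.7 CPM without EIPA and at 61.5 and 55.8 CPM with EIPA. Of the 9 genes, 0 were called, as were 0% of 13727 genes. DESeq2 also called 0 of the 9 (0.801% of all genes), and Axin2 alone had an unadjusted p under 0.05, as did 4.55% of all genes. With the block, Axin2 (adjusted p = 0.0258) and Lgr4 (adjusted p = 0.0274) were called, against 5.64% of all genes.

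In Paneth-like cells Wnt3 differed by 0.06 (SE 0.13), Lgr4 by -0.05 (SE 0.15), Lgr5 by 0.01 (SE 0.15), Axin2 by 0.08 (SE 0.13) and Rnf43 by -0.15 (SE 0.12). Nkd1, at 1.93 and 3.12 CPM without EIPA and at 2.84 and 3.31 CPM with EIPA, differed by 0.34 (SE 0.33). The edgeR test called 0 of the 9 genes here, against 0.267% of 12007, and the block and DESeq2 called none of the 9 either (3.16% and 0.658% of all genes). None of the 9 had an unadjusted p under 0.05, as 4.38% of all genes did. The Wnt3 level of Paneth-like cells lay between 58.5 and 70.9 CPM in all 4 WT libraries. Over all cells, where a change in a class and in its share of cells cannot be told apart, Wnt3 was at 7.15 and 10.1 CPM without EIPA and at 9.26 and 11.6 CPM with EIPA, higher in both pairs (log2 fold change 0.36, SE 0.23, adjusted p = 0.70). Paneth-like cells were 5.69 and 7.57% of cells without EIPA and 7.44 and 12.3% with EIPA, and the part of this share in the Wnt3 level was not tested. Over all cells 0 of the 9 genes were called by edgeR, with the block or by DESeq2, against 0%, 5.28% and 3.69% of 15890 genes, and none had an unadjusted p under 0.05, as 10.1% did.

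In enterocyte-like cells Rnf43 was at 11.3 and 14.3 CPM without EIPA and at 8.12 and 7.51 CPM with EIPA. The groups did not overlap, and the log2 fold change was -0.58 (SE 0.16), with an adjusted p of 0.19 and, blocked, of 0.05003. The cells of this class lay in different clusters in each group. The cluster led by Gstm3 held 44.9 and 47.5% of them without EIPA and 34.8 and 32.1% with EIPA, and that led by Reg3a held 30.9 and 22.6% and then 37.99 and 37.6%. Within the Gstm3 cluster Rnf43 was at 13.9 and 13.8 CPM without EIPA and at 10.0 and 10.1 CPM with EIPA, and within the Reg3a cluster at 6.89 and 9.43 CPM and at 4.88 and 4.95 CPM, so it was lower with EIPA in both. Lgr4 was at 24.9 and 35.8 CPM without EIPA and at 19.5 and 21.5 CPM with EIPA (-0.43, SE 0.18, adjusted p = 0.32). Lgr5 (-0.36, SE 0.21) and Axin2 (-0.07, SE 0.23) had wider errors. Nkd1 was too low to test, and 0 of the other 8 genes were called by edgeR, by the blocked fit or by DESeq2, against 0%, 8.69% and 3.94% of 12724 genes. Rnf43 alone had an unadjusted p under 0.05, as did 16.2% of all genes. Without -EIPA replicate 1, Rnf43 (adjusted p = 0.0445) and Lgr4 (adjusted p = 0.0486) were called, with 7.7% of all genes. Scaling by library size in place of TMM moved the median of all genes in this class from -0.04 to -0.17 and Rnf43 to -0.72.

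**Figure D3:**
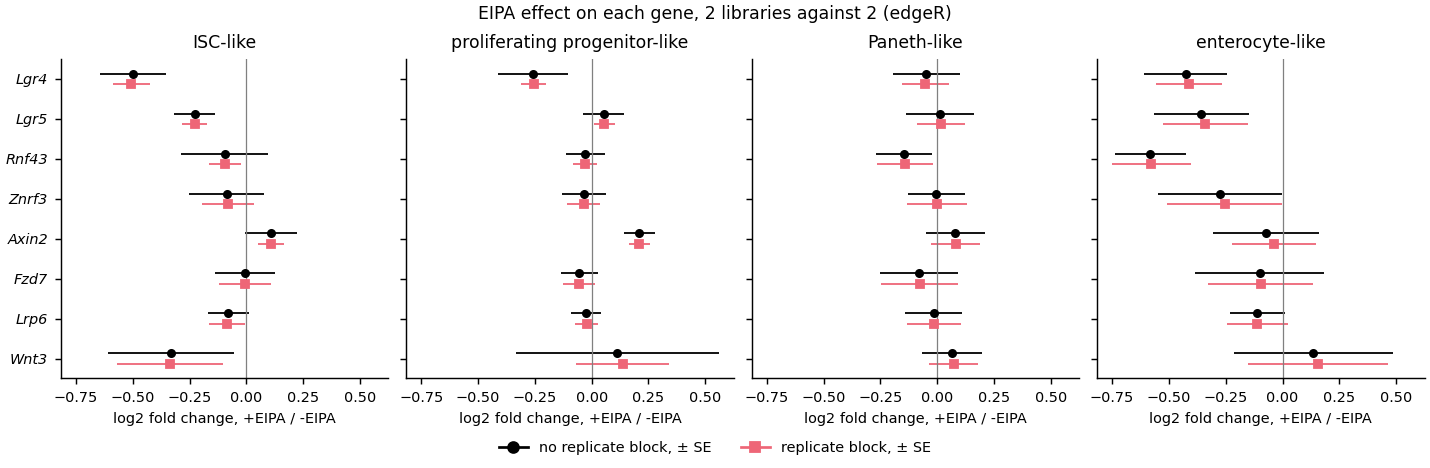
Log2 fold change of each gene with EIPA in 4 cell classes (horizontal axis), with bars of 1 SE, from edgeR without and with the experiment as a block. Lgr4 lies left of 0 in ISC-like, progenitor-like and enterocyte-like cells (-0.50, -0.26 and -0.43) and near 0 in Paneth-like cells (-0.05).

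The other 108 genes of the WNT list cover ligands, their secretion, receptors, inhibitors, transduction, nuclear effectors and targets. In ISC-like cells 0 of the 64 tested passed the edgeR test, 3 were lower at an unadjusted p under 0.05, and DESeq2 called 1. With the block 8 were lower and 0 higher, against 395 lower and 512 higher of all genes. The 3 with the smallest unadjusted p were Fzd5, a Frizzled receptor (log2 fold change -0.44, SE 0.095, adjusted p = 1.00), the AP-1 subunit Jun (-0.72, SE 0.17) and the crypt factor Klf5 (-0.33, SE 0.090), and the blocked fit called each. Fzd5 was at 30.4 and 29.5 CPM without EIPA and at 22.2 and 22.0 CPM with EIPA. The list's median was -0.04, against 0.00 for all genes tested.

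In progenitor-like cells 0 of 71 tested genes passed (2 higher and 4 lower at an unadjusted p under 0.05), DESeq2 called 1 higher and 1 lower, and the block 2 higher and 5 lower. Over all 13727 genes these counts were 358 and 266 unadjusted, 65 and 45 by DESeq2 and 460 and 314 with the block. Ascl2, a stem cell transcription factor, was at 27.4 and 30.9 CPM without EIPA and at 44.5 and 46.3 CPM with EIPA (0.64, SE 0.085, adjusted p = 0.28, blocked 9.66e-05). Jun (-1.06, SE 0.11) and Fzd5 (-0.36, SE 0.069) were lower in both pairs. In Paneth-like cells 0 of 64 passed (2 higher and 1 lower unadjusted), DESeq2 called Jun alone, as lower, and the block Jun as lower and Cd44 as higher. Over all 12007 genes, 391 were higher and 135 lower unadjusted, DESeq2 called 73 and 6, and the block 312 and 67. There Jun differed by -0.79 (SE 0.17), the crypt surface protein Cd44 by 0.45 (SE 0.14) and Ascl2 by 0.39 (SE 0.14). In enterocyte-like cells 0 of 62 passed, 4 were higher and 11 lower at an unadjusted p under 0.05, DESeq2 called 7 lower and the block 9 lower, with none higher in either. Over all 12724 genes 1220 were higher and 847 lower at an unadjusted p under 0.05, DESeq2 called 427 higher and 74 lower, and the block 848 and 258. Jun differed by -1.18 (SE 0.21), the transcription factor Tfap4 by -0.91 (SE 0.17) and Ephb2, a receptor that positions crypt cells, by -0.72 (SE 0.14). The list's median there was -0.12, against -0.04 for all genes tested, and the part of the unequal cluster shares of this class in these counts was not tested. Of 13 target genes that the study itself had shown from these samples, which are therefore no independent evidence of a direction, 12 were tested in enterocyte-like cells. Of these, 7 were lower and 1 higher at an unadjusted p under 0.05, and DESeq2 called 5, all lower. In the other classes 13 were tested, with 2 lower in ISC-like, 1 higher and 3 lower in progenitor-like and 1 higher and 1 lower in Paneth-like cells.

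Whether an EIPA difference was itself unequal between classes was tested with the library as a block. Against ISC-like cells, the test called 0 of the 9 genes in progenitor-like, Paneth-like and enterocyte-like cells, the classes it was run for. Over all 13761 genes the test called 0% in progenitor-like, 0% in Paneth-like and 9.23% in enterocyte-like cells (2.4%, 5.41% and 26.5% at an unadjusted p under 0.05). For Lgr4 the difference in Paneth-like cells was 0.44 above that in ISC-like cells (SE 0.13, adjusted p = 0.53). For Rnf43 the difference in enterocyte-like cells was 0.44 below it, a value of -0.44 (SE 0.16, adjusted p = 0.10). Those were the 2 of the 9 genes with an unadjusted p under 0.05 in any class. Without -EIPA replicate 1 the test called Lgr4 in Paneth-like cells (0.62, adjusted p = 0.0228), where it called 0.558% of all genes, and Axin2 in enterocyte-like cells (-0.45, adjusted p = 0.0144), where it called 27.6%. Without -EIPA replicate 2 it called Rnf43 in enterocyte-like cells (-0.58, adjusted p = 0.0477) and 3.17% of all genes. In clusters without batch correction it called Lgr5 and Rnf43 in progenitor-like cells, with 7.67% of all genes, and Lgr4 and Lgr5 in Paneth-like cells, with 4.36%. The ISC-like class they were compared with then held other cells, in unequal shares of each library as given above. The part of this in these calls was not tested.

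Dox was compared between 1 library and 1 library, so no test was made, and the intervals given cover counting error alone. A gene was counted as different when it was past 1.5-fold and its exact Poisson intervals (95%) were separate, with at least 10 UMIs in at least 1 library. Nkd1 was under this number.

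In ISC-like cells 0 of the other 8 genes were past this limit, against 4.09% of all genes. Lgr5 was at 168 CPM in -Dox and 175 CPM in +Dox, a log2 ratio of 0.06 (interval -0.01 to 0.13). Lgr4 went from 42.4 to 33.8 CPM (-0.33, -0.48 to -0.18) and Rnf43 from 43.2 to 57.1 CPM (0.40, 0.27 to 0.53). Axin2, at 147 and 149 CPM, Znrf3, Fzd7 and Lrp6 had ratios of 1.00 to 1.03. Wnt3 was at 2.92 and 4.68 CPM (0.68, 0.19 to 1.18), with Poisson intervals that overlapped. The summed Paneth markers in ISC-like cells were 1622 CPM in -Dox and 3982 CPM in +Dox, and their part in this value was not tested. When clusters were made without batch correction, all 8 genes were lower with Dox in ISC-like cells, a class that then held 4.47% of the cells in -Dox and 21.4% in +Dox. Lgr5 (-1.07), Axin2 (-0.71), Znrf3 (-0.70) and Fzd7 (-0.60) were then past the limit, against 6.25% of all genes, and Rnf43 (-0.35), Lrp6 (-0.24) and Wnt3 (-0.24) were not, nor was Lgr4 (-0.56). Rnf43 and Wnt3 thus turned from higher to lower with the grouping of the cells, while Lgr4 was lower in both. For Lgr5, Axin2, Znrf3, Fzd7 and Lrp6 the interval of the log2 ratio included 0 with batch correction, so they had no clear direction there. In Paneth-like cells 0 of 8 genes were past the limit, against 4.91%, and Wnt3 was at 82.1 and 78.5 CPM (-0.07, -0.17 to 0.04).

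In progenitor-like cells Wnt3 was past it, at 1.01 CPM in -Dox (107 UMIs) and 2.29 CPM in +Dox (166 UMIs), a log2 ratio of 1.18 (0.83 to 1.55), against 6.79% of all genes. The summed Paneth markers in the same cells were 1045 CPM in -Dox and 2729 CPM in +Dox, and their part in this result was not tested. In enterocyte-like cells Lgr5 was past it, at 15.5 and 10.2 CPM (-0.60, -0.75 to -0.45), where 18.6% of all genes were. The cells of this class again lay in different clusters, with 42.02% in -Dox and 27.5% in +Dox in the cluster led by Gstm3 and 36.7 and 51.4% in that led by Reg3a. Lgr5 was at 18.0 and 20.02 CPM within the Gstm3 cluster and at 9.41 and 3.68 CPM within the Reg3a cluster, so it was lower with Dox in the Reg3a cluster and not in the Gstm3 cluster. Over the class it was also past the limit without batch correction (-0.73) and without likely doublets (-1.04), and not at a finer clustering resolution (-0.52) or with stricter limits on cells (-0.49). Over all cells Wnt3 was past it, at 8.14 CPM in -Dox and 16.2 CPM in +Dox (0.99, 0.91 to 1.07), where 14.6% of genes were past the limit. Paneth-like cells were 5.74% of cells in -Dox and 12.9% in +Dox, EEC-like cells 2.30 and 5.84%, and the part of these shares in the Wnt3 level was not tested. The level of Lgr4 was lower with Dox in each class described, by log2 ratios of -0.14 in Paneth-like to -0.35 in progenitor-like cells.

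**Figure D4:**
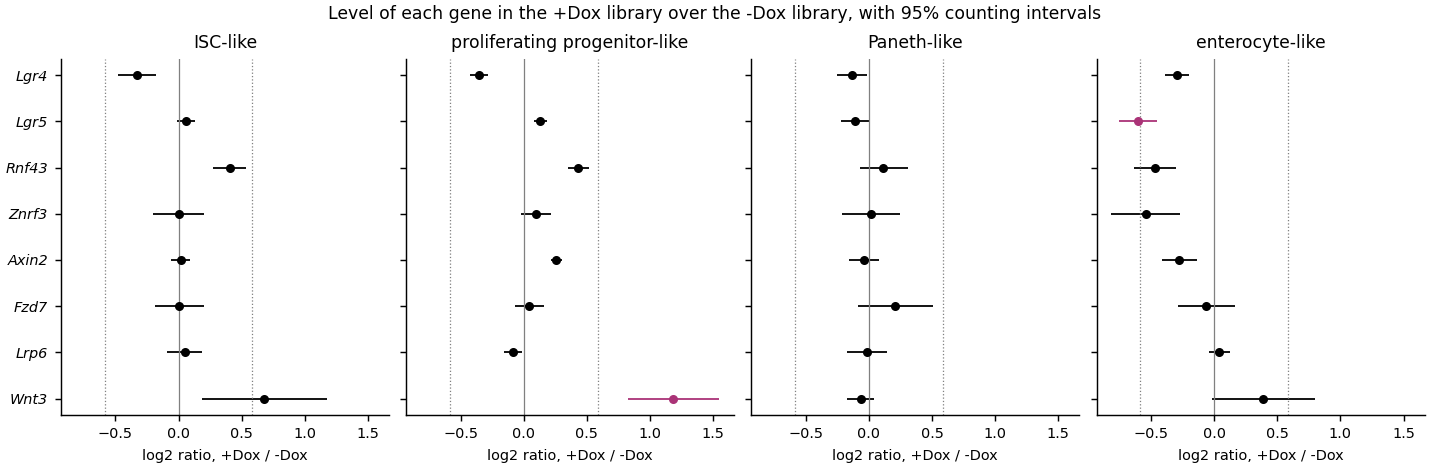
Log2 ratio of +Dox over -Dox (1 library each) for each gene in 4 cell classes, with intervals that cover counting error alone and lines at 1.5-fold. Wnt3 in progenitor-like cells (1.18) and Lgr5 in enterocyte-like cells (-0.60) lie beyond the lines with separate counting intervals.

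Of the other WNT list genes, 1 was higher and 3 lower with Dox of 65 compared in ISC-like cells, against 275 and 226 of all 12242 genes. These were the nuclear factor Lef1 (from 0.633 to 3.44 CPM) and Jun (367 to 215), Fzd5 (26.9 to 16.03) and the co-repressor Tle4 (35.3 to 23.0). In progenitor-like cells 4 were higher and 3 lower of 74 (601 and 340 of all 13852 genes), and the 6 with the largest ratios were Lef1 (0.216 and 0.882 CPM), Ascl2 (21.4 and 42.9), Bambi (3.72 and 6.86) and the target factor Sp5 (2.41 and 4.33), which were higher, and Jun (292 and 155) and Tle4 (44.6 and 26.1), which were lower. In Paneth-like cells 3 of 67 were higher, the inhibitor Apcdd1, the crypt target Bambi and the factor Ascl2. Jun and Fzd5 were lower, against 310 higher and 312 lower of all 12680 genes. In enterocyte-like cells 2 were higher and 14 lower of 67, where 1048 were higher and 1473 lower of all 13570 genes compared, and the class lay in different clusters as given above. The 6 with the largest ratios were the co-repressor Tle2 (0.532 and 0.132 CPM), the nuclear factor Tcf7l1 (0.374 and 0.103), Jun (316 and 127), Ccnd1, a cyclin (69.9 and 31.5), and Ephb2 (29.8 and 13.6), which were lower, and Sp5 (0.434 and 1.12), which was higher. The median log2 ratio of the list there was -0.23, against -0.09 for all genes. Over all cells 7 were higher and 2 lower of 80, against 1780 and 540 of all 15924 genes. There Rspo4 (0.0301 and 0.190 CPM), Apcdd1 (0.133 and 0.629), Lef1 (0.451 and 1.65) and Tnfrsf19 (0.0387 and 0.118) were higher at low levels. Bambi (7.11 and 17.04) was also higher and Jun (328 and 169) lower, and these were the 6 with the largest ratios. In Paneth-like cells Bambi was at 31.8 and 51.1 CPM, and these cells were 5.74% of cells in -Dox and 12.9% in +Dox. The part of such shares in the ratios over all cells was not tested.

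Co-detection asked in which cells a UMI of each gene was found together with one of Lgr5. Each cell was thinned to 5000 UMIs, which left out 8540 shallower cells in all, among them 284 ISC-like, 2275 enterocyte-like and 1204 EEC-like cells (EEC-like cells kept were 200 to 840 per library). An Lgr5 UMI was found in 48.5 to 57.9% of ISC-like cells (70.0 to 88.3% unthinned) and in 3.09 to 5.26% of enterocyte-like cells, with median depths of 9899 to 14455 and 11095 to 16945 UMIs before thinning. A Wnt3 UMI was found in 28.5 to 37.0% of Paneth-like cells, 20.7 to 38.3% of EEC-like cells, 0.827 to 1.90% of ISC-like cells and 0.374 to 0.785% of enterocyte-like cells (unthinned, 48.3 to 67.4%, 30.2 to 55.0%, 2.09 to 6.79% and 1.14 to 3.11%).

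Over all cells Axin2 was found in 39.3 to 43.4% of cells with an Lgr5 UMI and in 18.3 to 22.2% of those without. Its log2 odds ratio was 1.54 ± 0.15 (SD, n = 6 libraries). Rnf43 (1.06 ± 0.14), Znrf3 (0.89 ± 0.25), Fzd7 (0.78 ± 0.089), Lgr4 (0.31 ± 0.076) and Wnt3 (0.35 ± 0.19) were also above 0 in 6 of 6 libraries. That made 6 of 8 genes, where 40.2% of 10020 genes were above 0 in all libraries. Each of the 10020 genes was found in at least 1% of cells in every library, and Nkd1 (0 to 0.645%) was not. For depth, the reference genes Tbp, Gusb, Polr2a and Tfrc were above 0 in all 6 libraries at means of 0.22 to 0.32, and Pgk1 was below 0 in all 6, so the means of Lgr4 and Wnt3 lay close to the highest of the reference genes. In cells of all classes together such ratios also hold the differences between classes.

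Within ISC-like cells the ratios were smaller. Rnf43 was at 0.27 ± 0.085 and Axin2 at 0.25 ± 0.23, both above 0 in 6 of 6 libraries, and Axin2 ranged from 0.01 to 0.60. Znrf3 was above 0 in 5 libraries (0.34 ± 0.23) and Wnt3 in 1 (-0.30 ± 0.74). Thus 2 of 8 genes were above 0 in each library, as were 5.22% of 9697 genes, and 0 of the 7 reference genes. Each of the 9697 genes was found in at least 1% of these cells in every library. Nkd1 (0 to 0.875%) and Wnt3 (from 0.827%) did not meet that limit. The number of the 8 was 5 when cells were thinned to 2000 UMIs, where 3.61% of all genes were above 0 in each library, 6 without thinning (44.7%) and 5 without batch correction (9.26%). Without likely doublets it was 2, Rnf43 and Znrf3, and Axin2 was not among them (5.47%). In the 6 other named classes the odds of an Axin2 UMI were higher in cells with an Lgr5 UMI than in cells without one in each library, at mean log2 odds ratios of 0.84 in progenitor-like, 0.75 in Paneth-like, 0.95 in Goblet-like, 1.01 in EEC-like, 2.27 in enterocyte-like and 1.24 in tuft-like cells. Of all genes, 15.6%, 9.46%, 7.38%, 5.91%, 17.1% and 3.53% were above 0 in each library of these classes. So were the reference genes Tfrc (0.29) and Gusb (0.06) in progenitor-like, Tfrc (0.32) and Sdha (0.20) in Paneth-like, Sdha (0.29) in Goblet-like, Tbp (0.38) in EEC-like, Gusb (0.63) in enterocyte-like and Tfrc (1.28) in tuft-like cells. For Wnt3 the ratio was 0.04 ± 0.14 in Paneth-like and -0.24 ± 0.58 in EEC-like cells, and 0.76 ± 0.42 in Goblet-like cells, above 0 in 4, 2 and 6 libraries. The Goblet-like value pools clusters with unequal Wnt3 levels, and the part of this in it was not tested. The Axin2 ratios above pool unequal clusters as well. Goblet-like clusters differed in Axin2, progenitor-like clusters in Axin2 and Lgr5, and enterocyte-like clusters in Lgr5. The part of this in the Axin2 ratios was not tested. The Wnt3 ratio was also above 0 in 6 of 6 libraries in progenitor-like (0.96 ± 0.35) and enterocyte-like cells (1.39 ± 1.2). Few thinned cells there held Wnt3, 0.332 to 1.20% and 0.374 to 0.785% per library, so it was not among the genes that gave the shares above. A small constant was added to each count of an odds ratio, which weighs most where few cells hold both genes. The enterocyte-like ratio, from 0.01 to 2.77, therefore cannot decide whether they were found together.

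**Figure D5:**
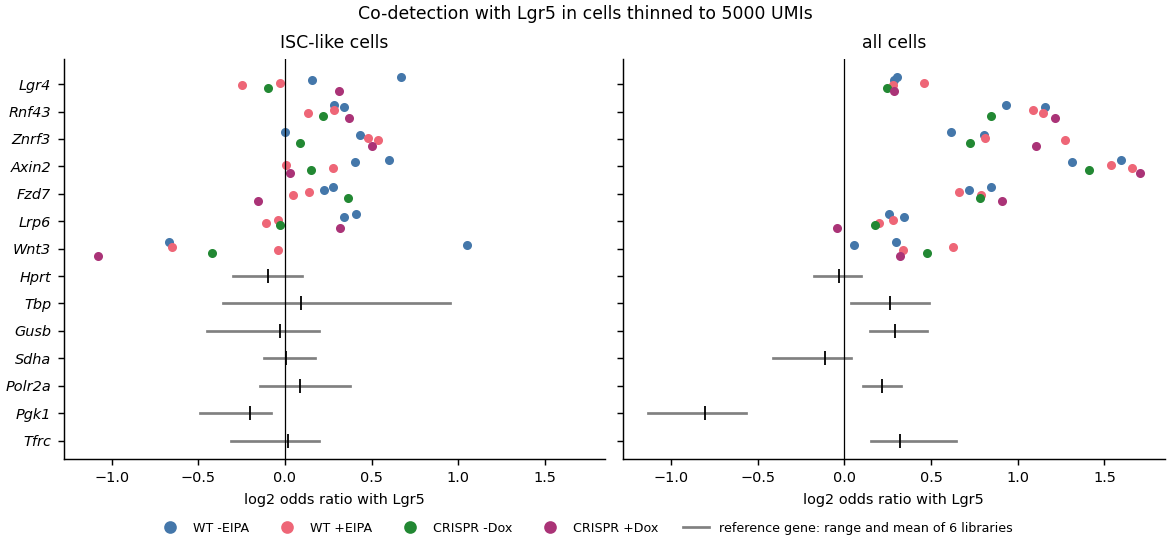
Log2 odds ratio that a cell with an Lgr5 UMI also had a UMI of another gene, in cells thinned to 5000 UMIs, for 7 of the genes (not the scarce Nkd1), with 1 point per library, and for 7 reference genes, with a line for the range and a tick for the mean. Axin2 is at 1.31 to 1.70 over all cells and at 0.01 to 0.60 within ISC-like cells.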

How the data were processed

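The 6 libraries were made with 10x Genomics 3' chemistry. Raw counts were deposited, for which the authors aligned reads to mm10 (GRCm38) with Cell Ranger 6.1.2, per the submitters' processing notes, and counted UMIs for each gene in each barcode. Only these matrices were used. The gene targeted in the CRISPR line and 1 planned reference gene are not reported here. The genes and lists were chosen with earlier results of these data known.

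Cells were kept from 1000 genes up if mitochondrial UMIs stayed under 20%. Pearson residuals (theta 100, 3000 genes) were reduced to 45 components, corrected between libraries with Harmony, joined over 20 shared neighbours and clustered with Leiden at a resolution of 0.8 (Python 3.11.15, numpy 2.4.6, scipy 1.17.1, scanpy 1.11.5, leidenalg 0.10.2). After correction 28.1% of a cell's neighbours came from its own library, against 56.8% before. A cluster was named when at least 2 of its 20 leading genes were markers of a type and at least 3 markers were above the other cells. The clusters were known when this rule was written, and 120 of 121 marker genes were found. Doublets were scored with Scrublet and kept, and the 10% of cells with the highest scores were left out in 1 alternative.

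Per library and class, counts were added up. CPM is a gene's sum over the class's sum, times 1000000. The levels of Fzd5 and Ascl2 given for EIPA were scaled by TMM as well. EIPA was tested in R 4.3.3 with edgeR 4.0.16 (TMM, filterByExpr, quasi-likelihood, Benjamini-Hochberg over all genes tested, threshold 0.05), and with DESeq2 1.42.0 as an alternative. The test of differences between classes took all class sums of the WT libraries with the library as a block. The study's source data pair the replicates as 2 experiments, and same-numbered libraries deviated together, with correlations of 0.657 in ISC-like, 0.808 in progenitor-like, 0.495 in Paneth-like and 0.421 in enterocyte-like cells and 0.734 over all cells. The experiment as a block leaves 1 residual degree of freedom, against 2 without it. For co-detection, cells were thinned to 5000 UMIs, and genes in at least 1% of cells of every library gave the background. A small constant was added to each count of an odds ratio. Intervals are exact Poisson and cover counting error alone.

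Genes named in the text were the 9 genes, and of the WNT list in each class those that passed, or the 6 with the smallest adjusted p if more passed, or the 3 with the smallest unadjusted p if none did. With Dox, where no p exists, up to 6 genes past the limit were taken by the size of the ratio. The genes most like Lgr5, Axin2 and Wnt3 were the 5 others with the highest r among genes at 10 CPM or more in a class. Scripts were tested on simulated data with 200 changed genes. The alternatives tried were no filter, library size scaling, DESeq2, the block, leaving out each WT library, clusters without batch correction, a resolution of 1.5, removal of likely doublets, and limits of 2000 genes and 10% mitochondrial UMIs.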

Additional observations from a re-analysis of the deposited data

Results flagged for a closer look

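For 6 genes of the WNT list the EIPA difference itself differed between enterocyte-like and ISC-like cells in the edgeR test of that difference (n = 2 libraries per group, adjusted p from 0.0025 to 0.0125), where 9.23% of all genes did. They are the 6 with the smallest adjusted p of 12 such genes, 5 higher and 7 lower in enterocyte-like cells, of 73 tested. The log2 differences, enterocyte-like minus ISC-like, were -0.73 for Ephb2, -0.73 for the matrix protein Smoc2, -0.62 for Tfap4, -0.68 for Ccnd1, -0.49 for Prom1 and -0.58 for Myc. In enterocyte-like cells alone Ephb2 differed by -0.72 and Smoc2 by -0.98 with EIPA, and in ISC-like cells by 0.06 and -0.19. ISC-like cells were 1 cluster, while the enterocyte-like cells lay in different clusters in each group, with 44.9 and 47.5% without EIPA and 34.8 and 32.1% with EIPA in the cluster led by Gstm3, and the part of this in the differences was not tested.

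The calls, though not the size of the differences, changed when a +EIPA library was left out. Over the 6 genes the log2 differences were -0.73 to -0.49 with all libraries. Without +EIPA replicate 2 they were -0.77 to -0.45, with adjusted p of 0.309 to 0.383 and 0 genes called at all. Without +EIPA replicate 1 they were -0.91 to -0.54, with adjusted p of 0.0715 to 0.152, and 52 genes were called and 0 of the 6. Without -EIPA replicate 1 or 2, 3912 and 450 genes were called, with all 6 among them. In clusters without batch correction 4 of the 6 were called, not Smoc2 (-0.21) and Prom1 (-0.10).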

How the results depend on the processing

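The number of the 9 genes called with EIPA was 0 in each class and changed as follows. In ISC-like cells it was 1 without the filter on low counts (Lgr4, with 131 genes in all), 2 with the replicate block and 1 in clusters without batch correction (Lgr5, with 100 genes). In progenitor-like cells it was 2 with the block. In enterocyte-like cells it was 1 without the filter (Rnf43, with 1149 genes) and 0 to 2 when a library was left out, the 2 being without -EIPA replicate 1. The block changed no other call of the 9 genes. For the difference between classes the number called in clusters without batch correction was 2 in progenitor-like (Lgr5 and Rnf43) and 2 in Paneth-like cells (Lgr4 and Lgr5), and 0 to 1 when a library was left out in Paneth-like and in enterocyte-like cells. The number past 1.5-fold with Dox in ISC-like cells was 4 without batch correction and 1 with stricter limits on cells, against 0. In enterocyte-like cells it was 0 at a resolution of 1.5, 2 without likely doublets and 0 with stricter limits, against 1. The number found with Lgr5 in each library within ISC-like cells was 5 when thinned to 2000 UMIs, 6 without thinning and 5 without batch correction, against 2 (of all genes 3.61%, 44.7% and 9.26%, against 5.22%). The causes were not tested. For the other counts, 85 alternatives kept the number within 1.5 times. For single genes, 808 alternative values stayed, 40 moved by more than their error and 16 passed the threshold. The sign differed in 57 of 509 EIPA values, 37 of them leaving out a library and 5 without batch correction, and in 36 of 162 differences between classes (26 and 9), and in 0 of these were both values over 1 SE from 0. A fit that left 1 library in a group took its spread from the other group. The number of all genes called differed by over 1.5 times with the block: 907 against 0 in ISC-like, 774 against 0 in progenitor-like, 379 against 32 in Paneth-like and 1106 against 0 in enterocyte-like cells, and DESeq2 called 19, 110, 79 and 501.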
